A study of Mus musculus with 41 samples.

Results

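Interferon-stimulated genes are the genes that cells switch on when an interferon reaches its receptor. The set described here holds 36 such genes in mouse endometriosis lesions. It was taken by name from a list of regulators, nucleic acid sensors, antiviral effectors and other induced genes, and all 36 of 36 listed genes were found among the 21249 genes of the count table. No measured value entered the choice of members, but the list was drawn up with earlier results of these data known.

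Type I interferons are secreted when a cell senses foreign or misplaced nucleic acid. They act through the receptor chains Ifnar1 and Ifnar2, whose kinases start a phosphorylation cascade. Stat2 and Irf9 are part of the complex that then binds the interferon-stimulated response element, a short motif in the promoters of the induced genes. Irf7 is both an induced gene and a factor that drives further interferon production, while Usp18 damps the receptor. Interferon gamma, made mainly by T cells and NK cells, acts through its own receptor and induces an overlapping set, in which the guanylate-binding proteins are prominent. In the female reproductive tract, epithelial cells are known to make the type I interferon epsilon, encoded by Ifne.

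The 41 libraries were whole-lesion RNA from 11 groups of mice aged 12 to 16 weeks. A uterine punch of 4 mm from a donor was glued to the inner peritoneal wall of a recipient. From day 7 the recipients received 3 intraperitoneal injections over 6 days, of 1 µg IL-33 or of PBS. IL-33 is an alarmin cytokine that activates group 2 innate lymphoid cells (ILC2s). Mice labelled Nmur1iCre-eGFP Id2fl/fl carry a Cre driven by Nmur1, a receptor gene used largely by ILC2s, and a floxed Id2, a factor these cells need, and are called deficient here. The deficient groups with fragment and recipient taken to be of the same genotype received PBS (n = 4), IL-33 (n = 4), IL-33 with a PBS injection in addition (n = 4), IL-33 after 250000 transferred ILC2s (n = 4) or IL-33 after 120000 (n = 2). The labels of the group with added PBS say only that it was treated with IL-33 and with PBS, and the additional injection is inferred. Transferred ILC2s were given intraperitoneally on the day before IL-33. The competent groups were C57Bl/6J wild type (n = 4), Id2fl/fl floxed controls (n = 4) and Nmur1iCre-eGFP controls (n = 4, called Cre controls), all with IL-33, and C57Bl/6J with IL-33 and 120000 ILC2s (n = 3). Fragments were also crossed, with IL-33 in each case: 4 libraries came from Cre-control fragments carried by deficient recipients and 4 from deficient fragments carried by Cre-control recipients. The labels do not say whether libraries of a group came from separate animals or from pools, so that spreads and p-values measure only the differences between these samples, which may be technical.

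Promoter stretches of 7 members are printed to show the response element at which the pathway converges and members that lack it in this window. RefSeq sequences of GRCm38.p6 were matched for 28 of the 36 members, as a window from 250 bases before to 50 after the gene's start. The element was searched on both strands as GAAA, any 2 bases and again GAAA. It was present in 17 of the 28 members (60.7%) and in 3.99% of the 27025 genes with a window. The gamma-activated site, searched on both strands as TTC, any 3 bases and GAA, was present in 6 of the 28 (21.4%) and in 9.55% of all genes. Each stretch below is printed 5′ to 3′ on the gene's strand and ends before the start of the gene in RefSeq, or in GENCODE where that lies earlier, with matches to the element in either orientation in capitals. They belong to Isg15 (chr4:156200819-156200948, minus strand), Ifit1 (chr19:34640759-34640870, plus), Ifit3 (chr19:34583399-34583528, plus), Oas3 (chr5:120777662-120777789, minus), Rsad2 (chr12:26456453-26456582, minus), Irf7 (chr7:141266482-141266554, minus) and Cmpk2 (chr12:26469085-26469203, plus).
Isg15: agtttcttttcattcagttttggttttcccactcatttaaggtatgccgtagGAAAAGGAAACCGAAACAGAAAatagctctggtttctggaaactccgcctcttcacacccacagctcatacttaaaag
Ifit1: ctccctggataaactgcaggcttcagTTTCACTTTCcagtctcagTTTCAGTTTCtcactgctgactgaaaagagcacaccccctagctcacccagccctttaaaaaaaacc
Ifit3: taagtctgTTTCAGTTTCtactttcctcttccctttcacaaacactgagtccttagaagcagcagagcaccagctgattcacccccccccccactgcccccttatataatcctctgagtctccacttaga
Oas3: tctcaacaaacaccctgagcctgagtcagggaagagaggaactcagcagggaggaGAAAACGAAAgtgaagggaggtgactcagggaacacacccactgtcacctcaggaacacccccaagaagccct
Rsad2: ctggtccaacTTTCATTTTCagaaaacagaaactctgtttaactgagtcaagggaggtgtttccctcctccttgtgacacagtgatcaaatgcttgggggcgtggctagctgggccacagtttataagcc
Irf7: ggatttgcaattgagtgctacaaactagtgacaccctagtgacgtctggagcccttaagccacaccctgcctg
Cmpk2: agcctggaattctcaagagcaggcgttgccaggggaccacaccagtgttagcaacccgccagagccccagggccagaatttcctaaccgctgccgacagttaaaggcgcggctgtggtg
Isg15 held 3 overlapping matches within 1 run, Ifit1 held 2 separate ones, and Ifit3, Oas3 and Rsad2 held 1 each. Irf7 and Cmpk2 held none in their stretches. A match is a description of the letters and no evidence of binding.

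The 36 genes lay on 15 chromosomes, and 19 of them fell into 8 clusters of neighbours in the GENCODE annotation of GRCm38. Ifit2, Ifit3, Ifit3b and Ifit1 followed each other on chromosome 19 (34550694 to 34650009), and Oas2, Oas3 and Oas1a on chromosome 5 (120730333 to 120907521). Rsad2 and Cmpk2 lay side by side on chromosome 12 (26442746 to 26479837), 1.35 and 1.37 Mb from Id2, the gene that the deficient mice carry in floxed form. Mx2 is annotated as a polymorphic pseudogene. Ifit3 and Ifit3b, Oas1a, Gbp2, Ifi213, Trim30a and Ms4a4c have close relatives in the mouse genome, so that the split of reads between them and their relatives is uncertain.

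Library totals ran from 28884926 to 70526624 counts, with a median of 42906356, and every member was counted in every library (lowest value 15 counts). Levels are CPM, counts scaled to the library's total after adjustment by the trimmed mean of M-values. ILC2 markers checked the labels, 7 of 9 being lower in deficient recipients, Il13 by 4.44 ± 0.42 (SE) on the log2 scale (adjusted p = 1.88e-08). Genes of the liver took more than 1% of counts in 4 libraries, and the 2 highest of the 16 libraries of the crossed fragment comparison in the interferon set itself were replicate 3 of the Cre-control fragments in deficient recipients and replicate 4 of the deficient IL-33 group. The comparison by recipient is given with and without them.

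The level of the set, the mean log2 CPM of its 36 genes, was higher in lesions carried by deficient recipients than in lesions carried by competent ones. The 22 libraries from deficient recipients had a median of 4.41 (3.27 to 6.23) and the 19 from competent recipients a median of 3.73 (3.14 to 4.41). Of the 22, 21 lay above the median of the competent libraries and 11 above all 19 of them. The group means were 5.17 ± 0.47 (SD, n = 2) in deficient mice with 120000 ILC2s, 5.07 ± 0.77 (n = 4) in Cre-control fragments in deficient recipients and 4.56 ± 0.64 (n = 4) in deficient mice with IL-33. They were 4.27 ± 0.38 (n = 4) with the added PBS, 4.24 ± 0.33 (n = 4) in deficient mice with PBS alone and 4.06 ± 0.55 (n = 4) with 250000 ILC2s. All 6 groups in deficient recipients thus came before the 5 in competent recipients. These were at 3.89 ± 0.35 (floxed controls, n = 4), 3.82 ± 0.37 (Cre controls, n = 4), 3.72 ± 0.44 (wild type with ILC2s, n = 3), 3.70 ± 0.62 (deficient fragments in Cre-control recipients, n = 4) and 3.33 ± 0.19 (wild type, n = 4). No neighbours in this order differed by more than the larger of their SDs. In whole lesions a change in the number of cells that carry these transcripts and a change in the transcripts per cell cannot be told apart.

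**Figure D1:**
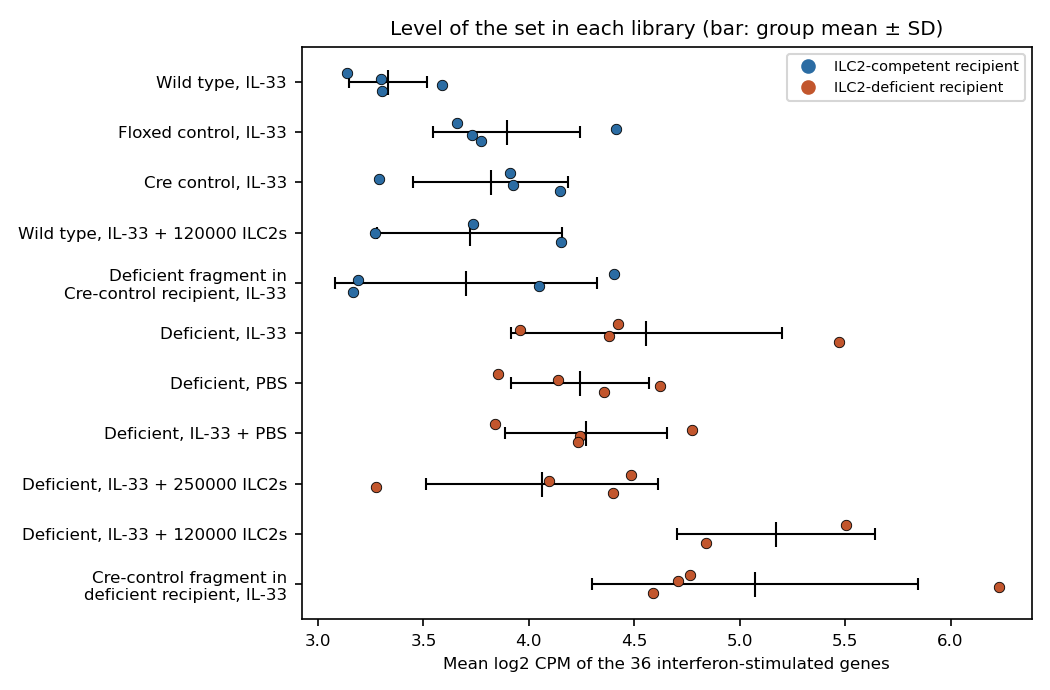
Mean log2 CPM of the 36 interferon-stimulated genes (x axis) in each of 41 libraries (points) by group (y axis), with the group mean and SD as bars. Libraries from deficient recipients (orange) have a median of 4.41 and those from competent recipients (blue) 3.73, and a single library reaches 6.23.

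The highest library, Cre-control fragment in deficient recipient replicate 3, stood at 6.23, against 4.59 to 4.76 in the other 3 of its group, and held the highest of all 41 values for 31 of the 36 members. Deficient IL-33 replicate 4 stood at 5.47, against 3.96 to 4.42, and was the highest of its group for 36 of 36 members. Deficient with 120000 ILC2s replicate 1, at 5.51, was among the 5 highest libraries for 36 of 36. Floxed-control replicate 2 stood at 4.41, against 3.66 to 3.77, and was the highest competent library. Deficient fragment in Cre-control recipient replicate 1 was close behind at 4.40. At the other end, replicate 3 of the deficient mice with 250000 ILC2s stood at 3.27, the lowest of the 22 libraries from deficient recipients. That library also differed in Chil3, a chitinase-like gene of alternatively activated macrophages, at 1191 CPM against 1.31 to 334 CPM in the other 21 and 527 to 6042 CPM in competent recipients. Whether this marks the transferred cells was not tested.

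**Figure D2:**
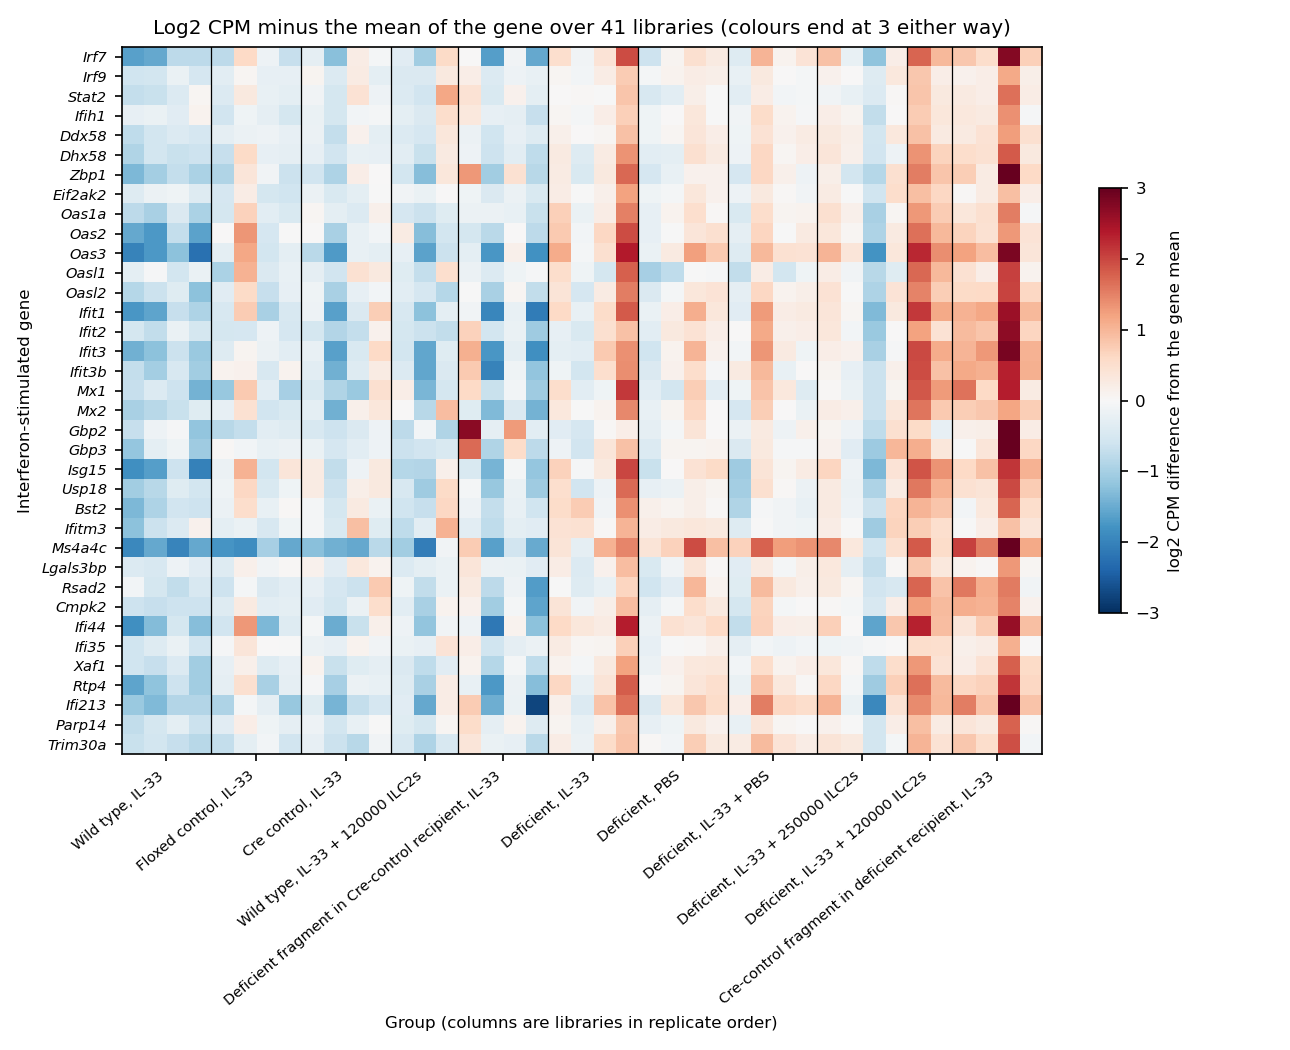
Log2 CPM of each member (rows) in each library (columns, by group) minus the mean of the gene over the 41 libraries, with colours ending at 3 in either direction. Whole columns change colour together, most of all replicate 3 of the Cre-control fragments in deficient recipients, which is the highest library for 31 of 36 genes.

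The members varied together from library to library within groups. After the group means had been subtracted, the Pearson correlation of a member with the mean of the other 35 had a median of 0.87 over the 41 libraries, from 0.56 for Ifitm3 to 0.96 for Parp14. Irf7 was next highest at 0.955, and Rsad2 (0.69) and Gbp2 (0.71) were the lowest after Ifitm3. The same correlation with the set had a median of 0.0085 over the other 21213 genes, of which 14 (0.066%) reached the median of the members. The first principal component of the members' within-group variation carried 75.6% of it. These are descriptions over libraries that share lesion composition and depth, and not independent evidence of regulation. The non-members most like the set by the same measure were Rnf213 (0.96), Znfx1 (0.92), Parp9 (0.92), Ddx60 (0.91), Irgm1 (0.91), Trim34a (0.91), Ifi206 (0.90), Herc6 (0.89), Parp12 (0.89) and Ifi47 (0.89). Of these 10, 8 were on the lists of further interferon-induced genes.

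Levels per kilobase of exon differed widely between members. Ifitm3, which blocks virus entry at membranes, was the most abundant with a mean of 152.4 CPM per kilobase, followed by the secreted glycoprotein Lgals3bp (57 CPM per kilobase) and the tether of budding virus Bst2 (30.9 CPM per kilobase). Ifi213, a member of the nucleic-acid-binding Ifi200 family, was the least abundant at 1.15, and Ms4a4c was at 1.68. Ifi213 and Ms4a4c also had the widest range, the highest library exceeding the lowest 80.2-fold and 75.7-fold. Abundance did not set the range as a rule, which was 44.1-fold for Gbp2 (20.8 CPM per kilobase) and 8.32-fold for Mx2 (1.95 CPM per kilobase). The highest library for Ifi213, Ms4a4c and Gbp2 was replicate 3 of the Cre-control fragments in deficient recipients. The range was 3.20-fold for Ifi35 and 3.34-fold for Irf9.

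The crossed fragments allow the genotype of the recipient to be set against that of the fragment, with 8 libraries on each side, all after IL-33. By recipient, 30 of the 36 members were higher in deficient recipients and none was lower, in the quasi-likelihood test of edgeR, with p-values adjusted over all genes by Benjamini-Hochberg. Of all genes tested, 11.3% passed, and 5.02% passed as higher. All 36 fold changes were positive, with a median log2 fold change of 1.06 (0.38 to 2.59), against a median of 0.0087 over all genes, and 20 of the 30 called members were at least 2-fold higher. The count rests partly on the 2 lesions named above: without both, 16 members passed, all of them among the 30, the median was 0.65 and 35 of 36 were positive. Leaving out any single library gave 23 to 31, the 23 being reached without either of those lesions. Without the libraries with liver genes, 29 of the 30 calls were kept.

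Among the regulators, Irf7 was at 27.9, 18.5, 26.4 and 77.6 CPM in deficient fragments in deficient recipients and at 34.8, 28.7, 133 and 32.4 CPM in Cre-control fragments in deficient recipients. It was at 16.4, 8.30, 23.1 and 18.9 CPM in Cre-control lesions and at 20.1, 6.27, 18.3 and 6.76 CPM in deficient fragments in Cre-control recipients. Of the 8 libraries from deficient recipients, 7 lay above all 8 of the others, and the log2 difference was 1.66 ± 0.38 (SE, adjusted p = 0.0041). Irf9, the DNA-binding subunit of the complex that binds the response element, rose by 0.48 ± 0.15 (adjusted p = 0.0389). Stat2, its partner, ranged from 68.0 to 216 CPM (median 80.0) in deficient recipients and from 47.9 to 93.7 CPM (median 63.1) in competent ones. Its difference of 0.53 ± 0.23 did not pass (adjusted p = 0.139). The 93.7 CPM belonged to Cre-control replicate 3, where liver genes took 6.29% of counts. Deficient IL-33 replicate 2, with liver genes at 2.87%, had 70.4 CPM of Stat2.

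All 5 sensors were higher. These are the cytoplasmic RNA helicases Ddx58 (RIG-I), Ifih1 (MDA5) and Dhx58 (LGP2), the Z-nucleic-acid sensor Zbp1 and the RNA-dependent kinase Eif2ak2. Ddx58 was at 63.9 to 151.5 CPM (median 81.3) in deficient and 38.5 to 69.8 CPM (median 52.9) in competent recipients, a log2 difference of 0.78 ± 0.16 (adjusted p = 0.0016), and 7 of the 8 competent libraries lay below all 8 of the others. Zbp1 had the largest change of the class, 1.36 ± 0.41 (adjusted p = 0.0295), and the widest spread. It was at 18.1, 11.1, 18.6 and 50.6 CPM in deficient lesions, 25.3, 18.1, 190 and 23.0 CPM in Cre-control fragments in deficient recipients, 10.3, 7.98, 17.7 and 15.4 CPM in Cre-control lesions and 37.4, 7.39, 21.1 and 8.50 CPM in deficient fragments in Cre-control recipients. The groups overlapped, and without the library at 190 CPM the Zbp1 difference was 0.61 and no longer passed. Ifih1 changed least, by 0.61 ± 0.18 (adjusted p = 0.0251).

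The Oas proteins make an oligoadenylate that activates an RNase, and 4 of 5 members of this family were higher. Oas3 led with 2.14 ± 0.42 (adjusted p = 0.0013). It was at 24.7, 10.9, 16.0 and 59.4 CPM in deficient lesions and 26.4, 21.5, 81.4 and 14.7 CPM in Cre-control fragments in deficient recipients, against 6.51, 3.46, 9.72 and 9.23 CPM in Cre-control lesions and 9.31, 3.36, 12.6 and 3.21 CPM in deficient fragments in Cre-control recipients. On each side 7 of 8 libraries lay outside the range of the other, and 1 library overlapped. Oas1a changed least of those called (0.92 ± 0.23, adjusted p = 0.0101), at 10.2 to 33.9 CPM (median 15.5) in deficient and 7.32 to 12.9 CPM (median 10.1) in competent recipients. Oasl1, which lacks synthetase activity, was 0.91 ± 0.32 higher and did not pass (adjusted p = 0.0584).

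The Ifit proteins bind viral RNA ends, and all 4 members were higher. Ifit1 was at 13.3, 7.54, 12.9 and 31.6 CPM in deficient lesions and at 18.1, 19.6, 52.5 and 17.3 CPM in Cre-control fragments in deficient recipients. In competent recipients it was at 7.87, 2.79, 6.51 and 14.6 CPM in Cre-control lesions and 8.14, 2.23, 7.55 and 2.00 CPM in deficient fragments. Of the libraries from deficient recipients 5 of 8 lay above all those from competent ones, and the log2 difference was 1.74 ± 0.38 (adjusted p = 0.00321), the largest of the family. The smallest was that of Ifit2, at 1.20 ± 0.28 (adjusted p = 0.00473).

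The GTPase class was divided. Mx1 was at 12.1, 6.74, 7.61 and 36.8 CPM in deficient lesions and 26.1, 12.8, 42.8 and 9.92 CPM in Cre-control fragments in deficient recipients, against 6.10, 4.42, 3.85 and 11.7 CPM and 12.7, 5.28, 7.90 and 3.94 CPM in the 2 competent groups. It rose by 1.45 ± 0.37 (adjusted p = 0.0108) with overlapping groups, and Mx2 rose by 1.23 ± 0.27 (adjusted p = 0.00291). The guanylate-binding proteins Gbp2 (0.70 ± 0.45, adjusted p = 0.34) and Gbp3 (0.81 ± 0.37, adjusted p = 0.162) did not pass.

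In the ISG15 system both members were higher. Isg15, a ubiquitin-like modifier, was at 6.93, 4.14, 5.23 and 17.3 CPM in deficient lesions and 6.46, 7.85, 19.1 and 8.78 CPM in Cre-control fragments in deficient recipients, against 5.07, 2.52, 3.83 and 5.18 CPM and 3.06, 1.60, 4.05 and 1.88 CPM in competent ones. The log2 difference was 1.5 ± 0.34 (adjusted p = 0.00378), and 7 of 8 libraries lay above all 8 of the other side. Usp18, which removes Isg15 and restrains the receptor, rose by 1.09 ± 0.30 (adjusted p = 0.0161).

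Among membrane and secreted proteins, Ms4a4c, a tetraspan protein of leukocytes, had the largest change of all 36. It was at 2.21, 1.38, 3.50 and 4.69 CPM in deficient lesions and 7.07, 4.94, 27.5 and 3.75 CPM in Cre-control fragments in deficient recipients, against 0.678, 0.593, 0.547 and 0.946 CPM in Cre-control lesions and 2.90, 0.516, 1.12 and 0.555 CPM in deficient fragments in Cre-control recipients. Of the 8 competent libraries 7 lay below all those from deficient recipients, and the difference was 2.59 ± 0.42 (adjusted p = 0.000141). Bst2 rose by 1.02 ± 0.24 (adjusted p = 0.00451), from a median of 21.7 CPM (15.3 to 30.2) to 36.8 CPM (23.4 to 84.3). Ifitm3 (0.62 ± 0.23, adjusted p = 0.0783) and Lgals3bp (0.38 ± 0.18, adjusted p = 0.183) did not pass. Ifitm3 was at 96.4 to 197 CPM in deficient and 57.1 to 179 CPM in competent recipients. Of the 8 competent libraries 7 lay below all those from deficient recipients. The 179 CPM belonged to Cre-control replicate 3, where liver genes took 6.29% of counts. Deficient IL-33 replicate 2, with liver genes at 2.87%, had 133 CPM of Ifitm3.

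The nucleotide and lipid enzymes are Rsad2 (viperin), which makes a chain-terminating nucleotide, and its neighbour Cmpk2. Rsad2 was at 11.6, 8.85, 10.04 and 18.1 CPM in deficient lesions and 35.2, 24.9, 34.3 and 10.9 CPM in Cre-control fragments in deficient recipients, against 9.78, 8.18, 7.43 and 20.3 CPM and 14.1, 6.78, 10.4 and 3.65 CPM in competent ones. It was the weakest of the 30 calls (0.84 ± 0.28, adjusted p = 0.0465) and was lost under 14 of the 23 alternatives run on it. Cmpk2 rose by 0.99 ± 0.23 (adjusted p = 0.00459), from a median of 7.30 CPM (2.87 to 12.5) to 14.03 CPM (8.09 to 24.6), and kept its call under all 23. All 7 of the other induced genes were higher, from Ifi35 at 0.51 ± 0.13 (adjusted p = 0.0101) to Ifi213 at 2.00 ± 0.44 (adjusted p = 0.00318). Ifi44 (1.83 ± 0.43, adjusted p = 0.00539) was the only member whose groups did not overlap, at 10.7 to 54.9 CPM against 1.99 to 9.93 CPM. The share of all genes with no overlap in that direction was 0.626%.

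Within each fragment genotype the comparison had 4 libraries against 4. Each of these set a crossed group against an uncrossed one, so that recipient and crossing cannot be told apart within it. On Cre-control fragments 18 members were higher in the deficient recipient (2.37% of all genes passed as higher), with a median log2 difference of 1.23, and on deficient fragments 6 were (1.85% of all genes), with a median of 0.89. None was lower in either. Rtp4, a chaperone of receptor transport, was the only one called in both, at 1.5 ± 0.44 (adjusted p = 0.0451) and 1.57 ± 0.44 (adjusted p = 0.0343). Both counts moved with single libraries. The first was 2 without Cre-control fragment in deficient recipient replicate 3, where the median fell to 0.795, and 6, 3 and 8 without Cre-control replicates 1, 2 and 3. The second was 0 without deficient IL-33 replicate 4, where the median fell to 0.445, 0 without replicate 2 or 4 of the deficient fragments in Cre-control recipients and 2 without their replicate 1.

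**Figure D3:**
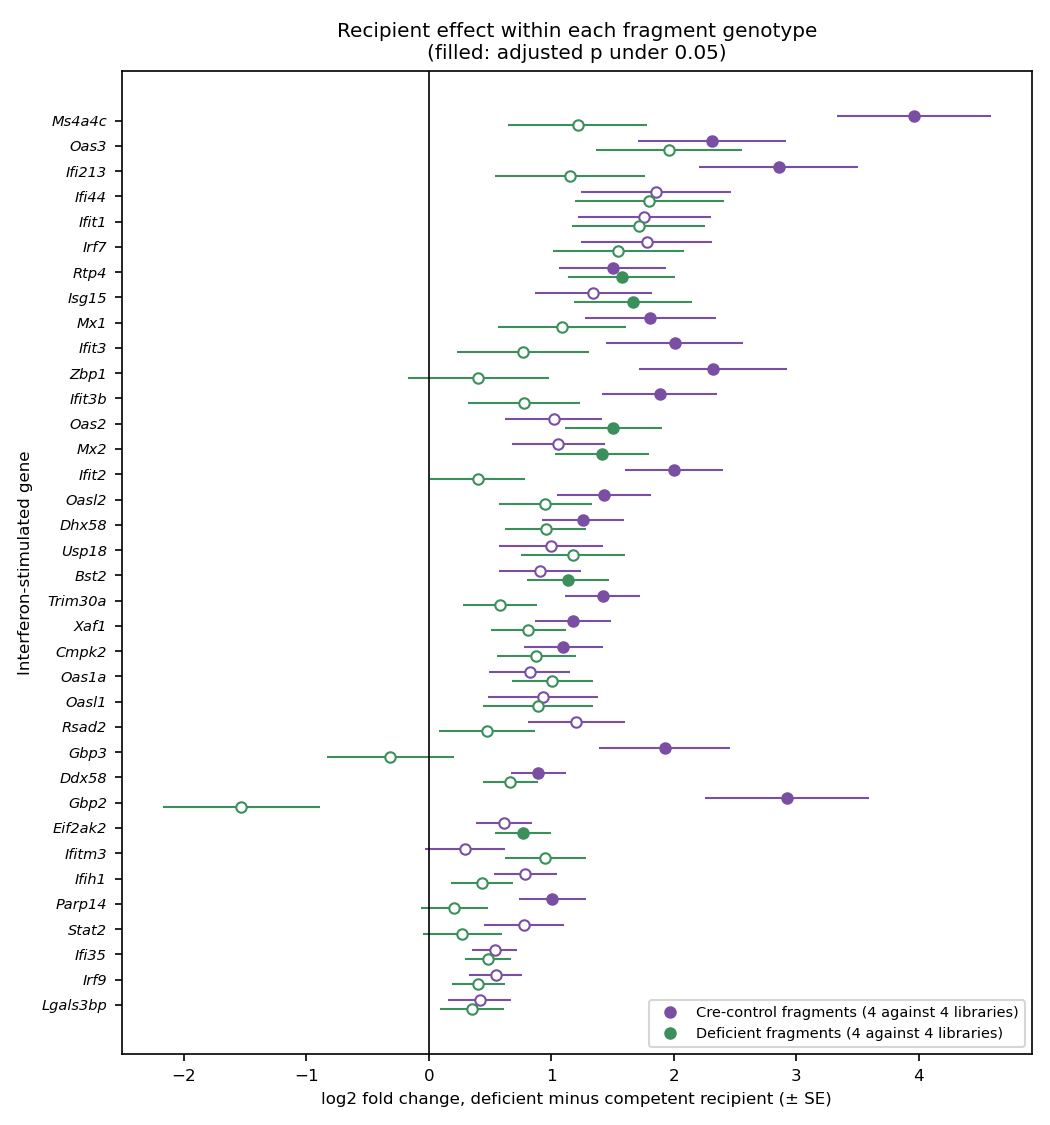
Log2 fold change between deficient and competent recipients with its SE (x axis) for each of the 36 members (y axis, ordered by the pooled change), separately on Cre-control fragments (purple) and deficient fragments (green), filled where the adjusted p is under 0.05. Filled points number 18 on Cre-control and 6 on deficient fragments, and Gbp2 lies on opposite sides of 0.

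The test of the difference between these effects called 1 member, Gbp2, as lower on deficient fragments. Of all genes 0.414% passed it in either direction. This test also sets the uncrossed against the crossed lesions, so that a difference between fragment genotypes cannot be told apart from an effect of crossing. Gbp2 is a guanylate-binding GTPase strongly induced by interferon gamma. It was at 37.9, 38.8, 668 and 40.3 CPM in Cre-control fragments in deficient recipients and at 225, 28.5, 82.9 and 27.8 CPM in deficient fragments in Cre-control recipients. It was at 27.3, 24.1, 34.9 and 39.5 CPM in deficient lesions and 24.6, 22.4, 25.3 and 31.0 CPM in Cre-control lesions, so that 3 crossed lesions held the high values. The recipient effect was 2.93 ± 0.67 on Cre-control and -1.53 ± 0.64 on deficient fragments, and the difference -4.46 ± 0.93 (adjusted p = 0.0331). The call was lost when only the groups compared were fitted, under the replicate block, and without any 1 of 10 of the 16 libraries, the lesions at 668 and 225 CPM among them. Without the lesion at 668 CPM the pooled recipient difference of Gbp2 was -0.45. The lesions at 668 and 225 CPM also held the highest sums of T cell markers, 384 and 96.4 CPM, against 8.18 to 26.2 CPM in the other 14 libraries of the crossed comparison. Their part in the Gbp2 result was not tested.

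By genotype of the fragment, deficient against Cre control over the same 16 libraries, no member passed. Of all genes 0.00471% passed, and 2 members had an unadjusted p under 0.05, against 3.92% of all genes. DESeq2 called none as well. The median log2 difference was -0.26, with 34 of 36 members lower in deficient fragments and an all-gene median of -0.02. A count of 2 in 36 lies near the share of all genes and is not read as a result about the members. By edgeR, the 2 were Rsad2 (-0.75 ± 0.28, unadjusted p = 0.011, adjusted p = 0.9997) and Cmpk2 (-0.51 ± 0.23, unadjusted p = 0.0307, adjusted p = 0.9997). These are the pair at 1.35 and 1.37 Mb from Id2 on chromosome 12. Cre against floxed controls, with 4 libraries each, gave 0.31 ± 0.39 for Rsad2 (adjusted p = 0.765) and 0.07 ± 0.32 for Cmpk2 (adjusted p = 0.947). The part of that position in the difference was not tested.

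When deficient lesions after IL-33 (n = 4) were set against the 12 libraries of the wild-type, floxed and Cre controls, 20 members were higher and none was lower. Of all genes 6.24% passed as higher and 4.72% as lower. All 36 fold changes were positive, with a median of 0.89 (0.33 to 2.37) against -0.015 over all genes, and 12 members were at least 2-fold higher. The comparison shares the deficient and Cre-control IL-33 libraries with that by recipient, and all 20 were among its 30. The count hangs on 1 lesion: without deficient IL-33 replicate 4 it was 1, although all 36 differences stayed positive, with a median of 0.50. The member that remained was Ms4a4c.

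Ms4a4c was at 1.38 to 4.69 CPM (median 2.86) in the 4 deficient lesions and at 0.390 to 0.946 CPM (median 0.547) in the 12 controls, a log2 difference of 2.37 ± 0.42 (adjusted p = 0.000655). It was the only member with no overlap, where 1.30% of all genes had none in that direction. Oas3 ran from 10.9 to 59.4 CPM (median 20.4) against 2.36 to 25.5 CPM (median 7.16), and differed by 2.03 ± 0.43 (adjusted p = 0.0028). Irf7 ran from 18.5 to 77.6 CPM (median 27.1) against 6.33 to 30.0 CPM (median 11.9), a difference of 1.44 ± 0.40 (adjusted p = 0.0178). In both genes the highest control was floxed-control replicate 2, and 11 of 12 controls for Oas3 and 9 of 12 for Irf7 lay below all 4 deficient lesions.

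Isg15 (1.38 ± 0.36, adjusted p = 0.0121) ran from 4.14 to 17.3 CPM against 1.01 to 8.86 CPM, Ifit1 (1.39 ± 0.40, adjusted p = 0.0241) from 7.54 to 31.6 CPM against 2.59 to 14.8 CPM, and Mx1 (1.35 ± 0.40, adjusted p = 0.0251) from 6.74 to 36.8 CPM against 3.08 to 14.5 CPM. Oas1a (1.02 ± 0.26, adjusted p = 0.00932) and Bst2 (1.03 ± 0.26, adjusted p = 0.00855) were also called, with 2 and 3 of 4 deficient lesions above every control. The least changed call was Ifi35 at 0.45 ± 0.15 (adjusted p = 0.0456). Of the named members, Zbp1 (1.18 ± 0.44, adjusted p = 0.0812), Cmpk2 (0.69 ± 0.25, adjusted p = 0.0718), Stat2 (0.45 ± 0.26, adjusted p = 0.274), Gbp2 (0.34 ± 0.50, adjusted p = 0.728) and Rsad2 (0.33 ± 0.31, adjusted p = 0.561) did not pass.

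The control genotypes gave different counts. Against wild type 22 members were higher (4.94% of all genes passed as higher) with a median of 1.25, against floxed controls 2 (4.69%) with a median of 0.67 and against Cre controls 1 (1.63%) with a median of 0.78. The count against wild type moved with single libraries, to 5 without deficient IL-33 replicate 4 (median 0.82) and to 7 and 13 without wild-type replicates 1 and 2. Against floxed controls it was 0 without deficient IL-33 replicate 4 and 1 without floxed replicate 1, 3 or 4, and against Cre controls it was 0 without any 1 of 6 of the 8 libraries. Whether the differences from the 3 control genotypes differ was not tested beyond the comparisons of controls below. With all libraries Ms4a4c was called against each of them, at 2.63 ± 0.60, 2.38 ± 0.59 and 2.09 ± 0.59. Isg15 differed by 2.43 ± 0.50 from wild type (adjusted p = 0.00235), by 0.68 ± 0.47 from floxed (adjusted p = 0.371) and by 1.02 ± 0.47 from Cre controls (adjusted p = 0.225). The wild-type libraries held the lowest Isg15 levels, 1.14, 1.32, 2.73 and 1.01 CPM. Tested directly, wild type and Cre controls had no member past the threshold in edgeR or DESeq2 (0.0376% of all genes passed) and 3 at an unadjusted p under 0.05 (11.4% of all genes), with a median of -0.42 and Isg15 at -1.41 ± 0.48 (adjusted p = 0.251). Cre against floxed controls also gave no call by either tool (0.329% of all genes passed) and 0 members at an unadjusted p under 0.05 (14.5% of all genes), with a median of -0.04.

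**Figure D4:**
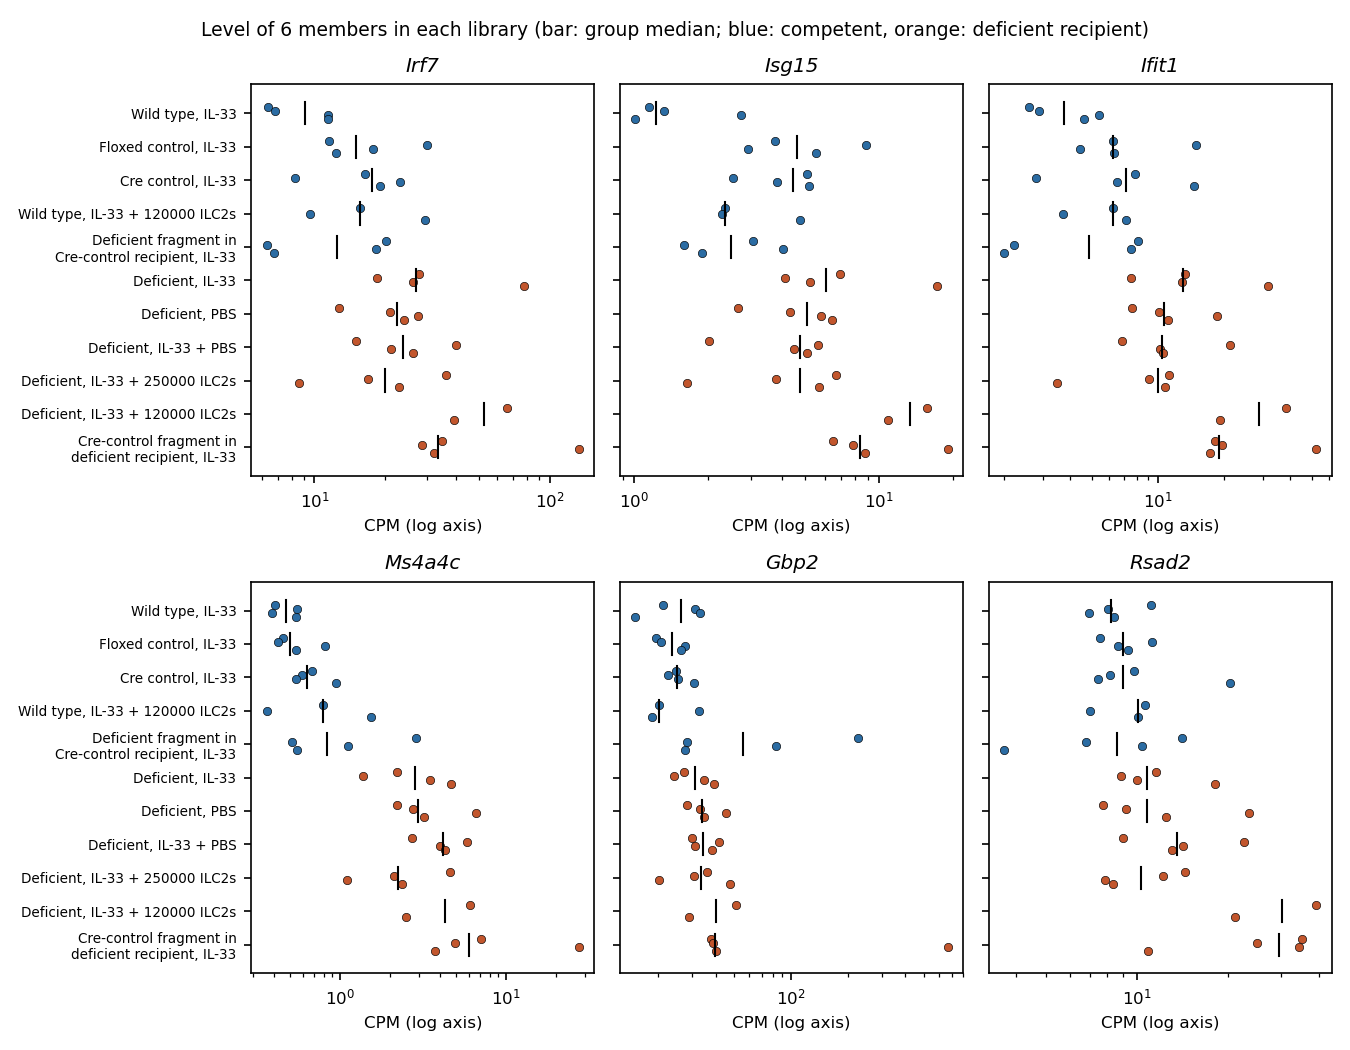
CPM on a log axis (x axis) of Irf7, Isg15, Ifit1, Ms4a4c, Gbp2 and Rsad2 in each library (points) by group (y axis), with group medians as bars, for competent (blue) and deficient (orange) recipients. Ms4a4c in deficient lesions (1.38 to 4.69 CPM) lies above all 12 controls (0.390 to 0.946 CPM), while Gbp2 reaches 668 and 225 CPM in 2 crossed lesions.

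IL-33 itself was tested in deficient mice, as no competent group received PBS. No member passed with edgeR (0.00941% of all genes did) or DESeq2, 2 had an unadjusted p under 0.05 (6.76% of all genes did), and the median log2 difference of IL-33 over PBS was 0.40, with 33 of 36 positive. Irf7 was at 12.8, 20.9, 27.5 and 23.96 CPM after PBS and differed by 0.82 ± 0.52 (adjusted p = 0.867). Without deficient IL-33 replicate 4 the difference over the set had a median of -0.0084. Deficient lesions that had received PBS alone were also set against the 12 IL-33-treated competent libraries. Here 3 members were higher (4.66% of all genes passed as higher), Ms4a4c at 2.70 ± 0.42 (adjusted p = 0.000145), Oas3 at 1.36 ± 0.44 (adjusted p = 0.0454) and Trim30a at 0.78 ± 0.24 (adjusted p = 0.0324). Ms4a4c was at 2.21, 2.75, 6.66 and 3.20 CPM in these 4 lesions, each above all 12 controls, and the set's median difference was 0.48 with 35 of 36 positive. The count was 1 without replicate 1, 3 or 4 of these lesions.

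After transfer of ILC2s no member passed the threshold in edgeR or DESeq2. Il13, an ILC2 marker, had a mean of 0.0595 CPM with 120000 cells and 0.0538 CPM with IL-33 alone in deficient mice. Its mean was 1.11 CPM in wild type with IL-33 alone. The summed ILC2 markers were at 95.76 to 158.73 CPM with 250000 cells and 128.45 to 175.15 CPM with the added PBS. Such sums can be mostly Rora, which had a mean of 81.9 CPM with 120000 cells, where the sums were 78.9 and 113.6 CPM. The sum is thus a different measure from Il13 and says little of the other markers. Whether the transferred cells were present in the lesions was not tested. With 250000 cells against the added PBS in deficient mice the median difference was -0.12, with 0% of all genes passing, 0 members at an unadjusted p under 0.05 (8.70% of all genes) and Irf7 at -0.27 ± 0.52 (adjusted p = 0.889). With 120000 cells against IL-33 alone in deficient mice (n = 2 against 4) all 36 were positive with a median of 0.51. Of all genes 0% passed, and 1 member had an unadjusted p under 0.05 (1.88% of all genes). Rsad2 differed most among the named members, by 1.31 ± 0.46 (adjusted p = 1.0). In wild type (n = 3 against 4) the median was 0.37, with 0% of all genes passing, 4 members at an unadjusted p under 0.05 (3.96% of all genes) and Irf7 at 1.02 ± 0.56 (adjusted p = 0.999). Leaving out 1 library gave medians of 0.12 to 0.60. Replicate 3 with ILC2s, where liver genes took 10.98% of counts, had a set level of 4.15, against 3.27 and 3.74 in its group. Wild-type replicate 4 without ILC2s, with liver genes at 6.30%, stood at 3.30. The added PBS against IL-33 alone in deficient mice gave a median of -0.36, with no member passing in edgeR (0.0141% of all genes did), 1 passing in DESeq2 and 6 at an unadjusted p under 0.05 (16.4% of all genes). The SEs of the members with 120000 cells in deficient mice ran from 0.22 to 0.76, with a median of 0.46, so that a difference that missed the threshold is not shown to be absent.

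Of the pathway around the set, 99 of 123 listed genes were in the table. In the comparison by recipient 17 of the 99 were higher and 3 lower. Of all genes 5.02% passed as higher and 11.3% in either direction. Of the receptors 0 of 6 passed, with Ifnar1 at -0.11 ± 0.10 and Ifnar2 at -0.16 ± 0.12. Of 8 kinases and transcription factors, Tyk2 (-0.34 ± 0.09, adjusted p = 0.0169) and Irf5 (-0.63 ± 0.17, adjusted p = 0.0137) were lower. Of 10 upstream sensors and adaptors, Tlr3, the endosomal receptor of double-stranded RNA, rose by 0.87 ± 0.17 (adjusted p = 0.000885) and its adaptor Ticam1 fell by 0.31 ± 0.09 (adjusted p = 0.022). The brakes (6 genes) had no call.

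Of 44 further genes known as type I induced, 15 were higher and none lower, with a median of 0.51. Of all genes 5.02% passed as higher. Those called included Ifi27l2a (1.70 ± 0.31, adjusted p = 0.000488), Slfn9 (1.39 ± 0.24, adjusted p = 0.000279), Samd9l (1.05 ± 0.23, adjusted p = 0.00304), Ddx60 (1.02 ± 0.22, adjusted p = 0.00287) and Rnf213 (0.86 ± 0.20, adjusted p = 0.00544). The sum of the 44 was 5742 CPM in replicate 3 of the Cre-control fragments in deficient recipients and 3799 CPM in deficient IL-33 replicate 4. It was 1994 to 2692 CPM in the other libraries of those groups and 1613 to 2447 CPM in competent recipients. The count of these genes without those 2 lesions was not tested. Of 24 genes known mainly for induction by interferon gamma, 1 was higher, Gbp9 (0.98 ± 0.30, adjusted p = 0.0319), with a median of 0.66. On Cre-control fragments alone 15 of these 24 were higher, with a median of 2.20, and on deficient fragments 2 were lower, with a median of -0.98, whereas the members had medians of 1.23 and 0.89. The difference between the 2 fragment genotypes passed for 9 of the 24 gamma-induced genes and for 1 of the 36 members. Here too, effects within and between fragment genotypes cannot be told apart from an effect of crossing. The gamma-induced values turned on a lesion on each side, replicate 3 of the Cre-control fragments in deficient recipients, whose sum was 4243 CPM against 438 to 546 CPM in the rest of its group, and replicate 1 of the deficient fragments in Cre-control recipients, at 1863 CPM against 309 to 659 CPM. Without the first, the count on Cre-control fragments was 0, with a median of 0.52, and without the second, that on deficient fragments was 0, with a median of -0.0031. The difference between fragment genotypes had 0 calls without either. Over both fragment genotypes 2 of the 24 were lower and none higher without the first (median -0.25), and 11 were higher without the second (median 1.29). Leaving out other single libraries gave 4 to 18 calls on Cre-control fragments, 0 to 2 on deficient fragments and 0 to 17 for the difference.

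Markers of other cells and of cell division were counted in the same comparison. All 12 cell-division genes were higher in deficient recipients, with sums of 312 to 754 CPM against 173 to 268 CPM. T cell markers were higher for 3 of 8 (sums of 12.9 to 384 against 8.18 to 96.4 CPM), NK cell markers for 0 of 7 (3.00 to 115 against 3.83 to 26.7 CPM) and epithelial markers for 0 of 10 (17.2 to 1792 against 50.7 to 597 CPM). Plasmacytoid dendritic cells are known as strong producers of type I interferon, and of 8 markers listed for them 1 was higher, Tcf4, which other cells express too (sums of 327 to 452 against 283 to 335 CPM). Monocyte and eosinophil markers separated the 2 sides without overlap in their sums. Monocyte markers summed to 121 to 889 CPM in deficient and 1335 to 6237 CPM in competent recipients, with 2 of 6 higher and 2 lower. Chil3 carried that gap (11.6 to 334 against 1179 to 6042 CPM), and the other 5 overlapped at 109 to 555 against 156.1 to 255 CPM. Eosinophil markers summed to 4.97 to 9.67 against 33.2 to 60.3 CPM, with 2 of 4 lower, and Ear2, an eosinophil-associated ribonuclease, carried most of it (1.98 to 7.94 against 28.96 to 55.3 CPM). The part of each of these in the interferon result was not tested.

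Ifne was the only interferon gene of 21 listed that was in the table, and the others were not analysed here. It held 1086 counts over the 41 libraries and 0 counts in 6 of them, and its recipient difference of 2.38 ± 0.90 did not pass (adjusted p = 0.0829). The 4 libraries with the most Ifne were at 4.53 CPM (Cre-control fragment in deficient recipient replicate 3, 149 counts), 4.13 CPM (deficient with 120000 ILC2s replicate 1, 218 counts), 3.31 CPM (floxed control replicate 2, 117 counts) and 3.04 CPM (deficient IL-33 replicate 4, 140 counts). The other 37 libraries had 0 to 0.950 CPM, with a median of 0.181 CPM. These 4 were the 3 highest libraries in the interferon set and the highest competent one, at 4.41. The next competent library, deficient fragment in Cre-control recipient replicate 1, was close behind at 4.40. It held 1 count of Ifne (0.0273 CPM) and 50.7 CPM of epithelial markers.

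The same 4 libraries held the most epithelium. Their sums of 10 epithelial markers, among them Epcam and Krt8, were 1068, 1119, 1066 and 1792 CPM in the order just given, against 16.5 to 597 CPM (median 205) in the other 37. Outside them, libraries with little epithelium and 0 counts of Ifne had higher and lower set levels. Deficient with added PBS replicate 2 stood at 4.77 with 23.8 CPM of epithelial markers. Cre-control fragment in deficient recipient replicate 1 stood at 4.76 with 17.2 CPM. Deficient with added PBS replicate 1 stood at 3.84 with 16.5 CPM, and floxed-control replicate 3 at 3.73 with 25.6 CPM. Replicate 3 of the deficient mice with the larger ILC2 transfer stood at 3.27 with 60.4 CPM. Wild-type replicate 1 without ILC2s had the lowest set level of the 41 libraries, 3.14, with 46.4 CPM. The summed gamma-induced genes were also high in 3 of the 4 libraries with the most epithelium. They were at 4243, 606 and 665 CPM in the libraries that ranked 1, 2 and 3 in the set. Those libraries ranked 1, 6 and 4 of 41 in this sum, and floxed-control replicate 2 was at 351 CPM. The library second in this sum was deficient fragment in Cre-control recipient replicate 1, at 1863 CPM. This reading of the libraries was made after their values were seen, and the part of epithelium or Ifne in the set level was not tested.

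**Figure D5:**
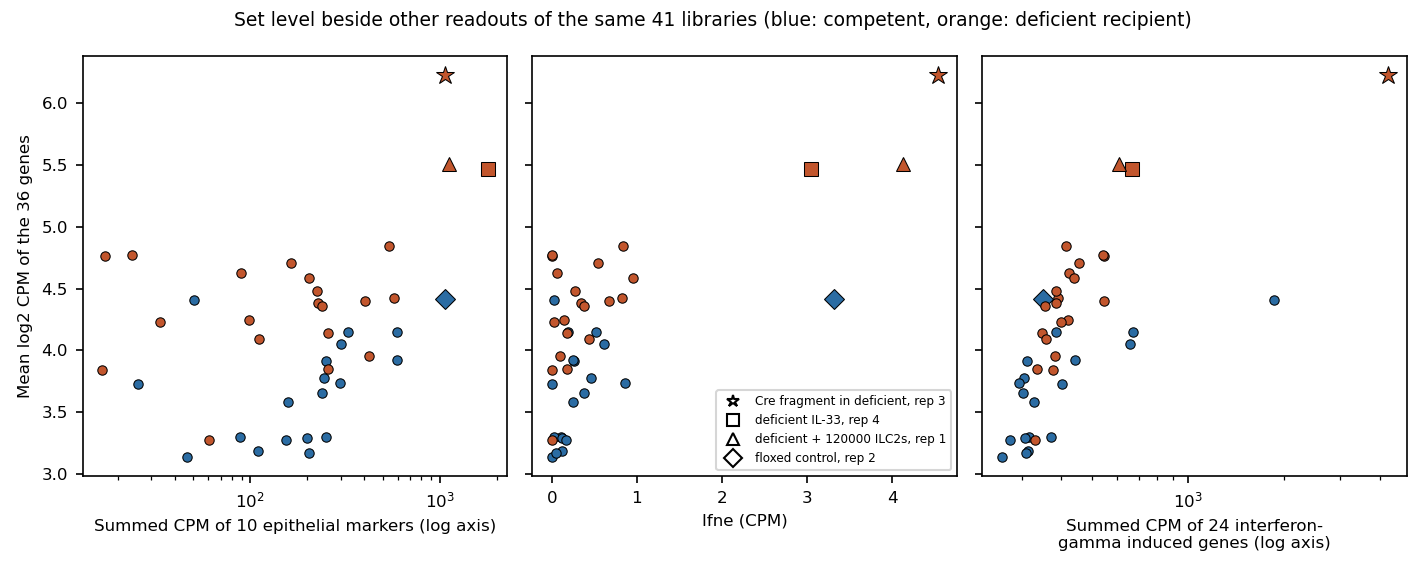
Set level (y axis, mean log2 CPM of the 36 genes) against the summed CPM of 10 epithelial markers (left, log axis), Ifne in CPM (middle) and the summed CPM of 24 interferon-gamma induced genes (right, log axis) in 41 libraries, with 4 libraries marked by symbols. The 4 marked libraries have 3.04 to 4.53 CPM of Ifne and at least 1066 CPM of epithelial markers, and the star alone reaches 4243 CPM of gamma-induced genes.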

How the data were processed

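RNA from snap-frozen lesions was made into libraries with a NEBNext UltraExpress kit, per the labels' protocols. The authors deposited 1 table of raw counts per gene for the 41 libraries, whose unit was checked from its whole numbers and unequal library totals. Trimmomatic, STAR, HTSeq, edgeR, limma and the build GRCm38 are named in the submitters' processing notes, and the strand setting of the counting was not given in the sources used here. No gene has a total under 411 counts over the table, so genes of lower count were not analysed here. The members and gene lists were chosen with earlier results of these data known.

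Counts were fitted with edgeR 4.0.16 (R 4.3.3), with trimmed mean of M-values scaling, 11 group means over all 41 libraries and the robust quasi-likelihood test, and p-values were adjusted by Benjamini-Hochberg over 21249 genes at 0.05. The low-count filter removed 0 genes. Standard errors are the log2 fold change over the square root of F. Log2 CPM used a prior count of 2. Scripts were tested on simulated data. Alternatives were DESeq2 1.42.0, relative-log scaling, at least 1 CPM in 4 libraries, a fit of only the groups compared, a block for the replicate number and leaving out each library. Leaving out the libraries with liver genes, or the 2 highest libraries of the crossed comparison, and leaving out libraries for the gamma-induced genes, was chosen after seeing the data. Values are given for every library of the crossed comparison, or by range, for Irf7, Stat2, Isg15, Ifit1, Oas1a, Mx1, Zbp1, Bst2, Gbp2, Rsad2, Cmpk2, and for the largest and smallest change called in each role class; others are counted. Promoters are RefSeq sequences of GRCm38.p6, and positions are from GENCODE. A gene of the pathway list is counted but not reported here by name.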

Additional observations from a re-analysis of the deposited data

Results flagged for a closer look

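In groups of 4 libraries, 108 sets of values were examined for a library far from the other 3. The cut-off is one that chance passes in about 1 in 20 independent sets. The sets here share libraries and members that vary together, so that their count cannot be set against that rate. A library far from the others was found in 10 sets. Of these, 6 belong to replicate 3 of the Cre-control fragments in deficient recipients, where the gap to the nearest library over the group's range was 0.893 for the set level (6.23 against 4.59 to 4.76), 0.875 for Irf7, 0.947 for Stat2, 0.888 for Ifit1, 0.859 for Zbp1 and 0.979 for Gbp2. Stat2 in deficient IL-33 replicate 4 had a gap of 0.941. Floxed-control replicate 2 was high in the set level (0.846, at 4.41 against 3.66 to 3.77) and in Cmpk2 (0.847). Oas1a was low in replicate 4 of the deficient fragments in Cre-control recipients (0.889). The recipient effect on Gbp2 differed between deficient and Cre-control fragments by -4.46 on the log2 scale (adjusted p = 0.0331 by edgeR), a call that was lost without any 1 of 10 of the 16 libraries, the first of these among them.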

How the results depend on the processing

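By recipient, the members' median difference was positive under all 23 alternatives, and the number of calls moved by over 1.5 times only without the 2 highest libraries of the crossed comparison (16); it was 20 with only the groups compared and 32 by DESeq2. Leaving out 1 library gave 23 to 31 calls by recipient, 1 to 22 for deficient against competent lesions under IL-33, and 0 to 1 for the difference between fragments, whose single call became 0 under the replicate block, 0 with only the groups compared, 0 without the libraries with liver genes and 2 by DESeq2. The added PBS against IL-33 alone had 1 call by DESeq2. Leaving out 1 library gave 0 to 2 calls against Cre controls, 0 to 3 against floxed controls, 5 to 26 against wild type, 2 to 22 on Cre-control fragments, 0 to 7 on deficient fragments and 1 to 3 for deficient lesions with PBS. The set-level difference by recipient was 0.852 to 1.18 and the median correlation 0.846 to 0.883. With the replicate block the counts were 29 by recipient and 21 under IL-33, and beside the difference between fragments no count of the other comparisons changed. Same-numbered libraries correlated above 0.1 in 65 of 191 pairs, and 11 of 41 libraries were closest to their own number, so that the numbers were not taken as pairs. With 2 to 4 libraries a group, a difference that missed the threshold is not shown to be absent; Rsad2 at 1.31 ± 0.46 with 120000 ILC2s did not pass. The cause of these changes was not tested beyond the smaller number of libraries.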
